A study of Mus musculus with 7 samples.

Results

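The genes for the proteins of the cytosolic ribosome were examined in RNA sequencing libraries of blood-forming cells sorted from mouse fetal liver. They were taken by symbol: every gene named Rpl or Rps with a number, with or without a final a or x, together with Rpsa, Rplp0, Rplp1 and Rplp2. This gave 76 of the 22680 genes in the deposited table, 30 for the small (40S) and 46 for the large (60S) subunit, and all 76 averaged at least 1 FPKM (fragments scaled by transcript length and library size) in the stem cell libraries and were tested. Fau and Rps3a1, which also encode cytosolic ribosomal proteins, are among those that fell outside the symbol rule, and Fau is given separately.

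All cells came from C57BL/6 fetuses at 13.5 days post coitum. There were 3 libraries of Uhrf1-/- LSK cells, 1 library of wild-type LK cells and 3 libraries of wild-type LSK cells, and each sort yielded approximately 10000 LSK cells per the labels. LSK stands for lineage-negative cells positive for Sca-1 and c-Kit, among which the stem cells and multipotent progenitors are found, and LK for c-Kit-positive progenitors without Sca-1. The labels do not say how or in which cells Uhrf1 was deleted, nor how many fetuses went into a library, and the p-values measure only the spread between these libraries. Uhrf1 stood at 10.2, 8.78 and 18.6 FPKM in Uhrf1-/- LSK libraries, against 63.0, 66.8 and 112.8 FPKM in wild-type LSK libraries. Ly6a, which encodes Sca-1, stood at 0.321 FPKM in the LK library, against 26.4 to 96.4 FPKM in the LSK libraries. The deposited count values, which are not whole and are called scaled counts here, summed to 15556959 to 21017402 per library.

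A cytosolic ribosome contains a single copy of most of its proteins, and cells make them in matched amounts from genes scattered over the genome. Their messenger RNAs are short and abundant, and they begin with a C followed by a run of pyrimidines, the TOP motif, through which the kinase mTOR controls their translation. Loss of a single copy of such genes causes Diamond-Blackfan anaemia in humans, in which red cell formation fails, and blood stem cells are known for a low and tightly held rate of protein synthesis.

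The start sites of 6 of the genes are shown because they carry the pyrimidine tract by which the family is known. Each sequence runs 5′ to 3′ on the gene's own strand, from 30 bases before to 20 bases after the annotated start, in the GRCm38.p6 build of RefSeq. Capitals mark the tract, a C followed by at least 6 further pyrimidines.
Rps6 (chr4:86857348-86857397, minus strand): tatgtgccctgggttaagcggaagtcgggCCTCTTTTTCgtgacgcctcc
Rps18 (chr17:33955646-33955695, minus strand): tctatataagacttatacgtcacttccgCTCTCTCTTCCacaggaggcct
Rps27 (chr3:90213629-90213678, minus strand): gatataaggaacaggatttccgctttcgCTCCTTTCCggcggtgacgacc
Rpl28 (chr7:4792935-4792984, plus strand): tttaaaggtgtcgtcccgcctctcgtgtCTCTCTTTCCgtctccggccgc
Rpl35 (chr2:39005112-39005161, minus strand): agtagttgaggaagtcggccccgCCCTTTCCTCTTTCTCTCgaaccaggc
Rpl38 (chr11:114668550-114668599, plus strand): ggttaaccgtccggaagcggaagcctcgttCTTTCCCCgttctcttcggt

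RefSeq start-site windows of 300 bases were matched for 56 of the 76 genes by gene ID. A tract of this kind, on the gene's strand and beginning between 10 bases before and 30 bases after the annotated start, was found for 35 of the 56 genes (62.5%). It was found for 20.8% of 8441 other tested genes with a window. The ETS-type motif CCGGAAG, searched on both strands over the whole window, was present for 23 of 56 (41.1%), against 22.0% of the other tested genes. The letters TATAAA, searched on the gene's strand in the 50 bases before the start, were found for 0 of 56 genes, against 1.80% of the other tested genes. Such matches describe the letters only. The reverse complement of the ETS-type motif, CTTCCGG, holds pyrimidines and can overlap the tract, while in Rpl38 above they lie apart.

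Together the 76 genes took 10.5%, 10.2% and 15.3% of the scaled counts in Uhrf1-/- LSK libraries 1 to 3, 13.9% in the LK library, and 13.1%, 4.53% and 13.9% in wild-type LSK libraries 1 to 3. A single library, wild-type replicate 2, lay far below the other 6. The Uhrf1-/- mean was 12.0% ± 2.87 and the wild-type mean 10.5% ± 5.21 (SD, n = 3 each), a difference of 1.49 percentage points (two-sided exact permutation test, p = 0.8, where 0.1 is the smallest p that 3 against 3 libraries allow). Without wild-type replicate 2 the difference was -1.51 points, and without Uhrf1-/- replicate 3 it was -0.17 points, so the direction rested on single libraries. The share of summed FPKM, which weights genes by length, was 22.0%, 21.4% and 34.5% in Uhrf1-/- LSK libraries, against 24.9%, 12.0% and 32.7% in wild-type LSK libraries. In bulk RNA, a smaller share cannot be told apart from more RNA of other genes per cell.

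**Figure D1:**
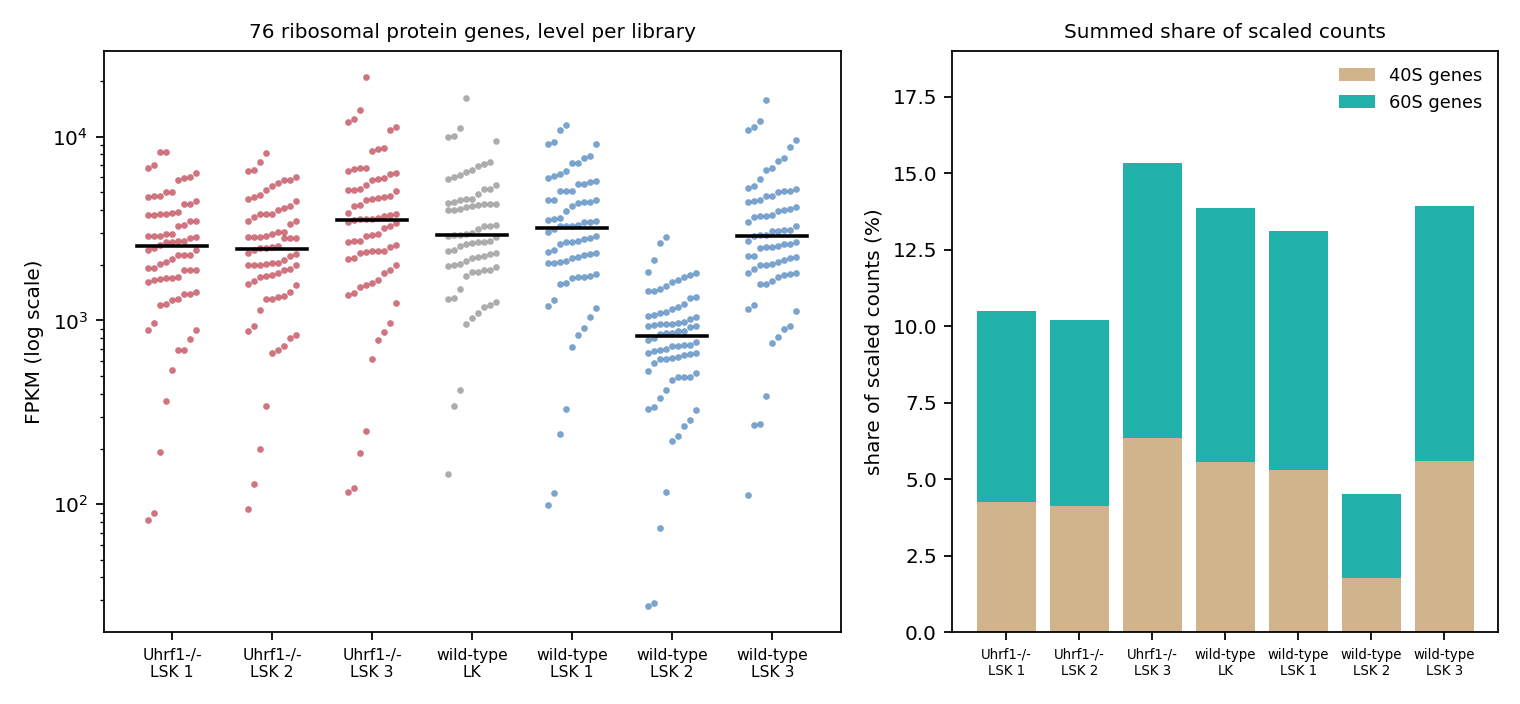
Left, the level of each of the 76 ribosomal protein genes (points, FPKM on a log axis) in each library, with the median as a black line. Right, the summed share of scaled counts in percent, split into 40S and 60S genes, with wild-type LSK replicate 2 at 4.53% and the other libraries at 10.2% to 15.3%.

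The balance between the subunits varied far less than the total. The ratio of summed FPKM of 40S to 60S genes was 0.751, 0.759 and 0.751 in Uhrf1-/- LSK libraries, 0.755 in the LK library and 0.748, 0.742 and 0.749 in wild-type LSK libraries. Wild-type replicate 2, with its low total, had the lowest ratio and yet lay within 0.02 of every other library. All 3 Uhrf1-/- libraries were above all 3 wild-type libraries, by a mean of 0.014 on the log2 scale (two-sided exact permutation test, p = 0.1, the smallest possible). With summed scaled counts the difference was 0.045 (p = 0.3) and with medians over genes 0.038 (p = 0.9, both exact permutation tests).

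Gene by gene, no difference between Uhrf1-/- and wild-type LSK cells passed the test. In limma's moderated test with Benjamini-Hochberg adjustment over 10608 genes, 0 of 76 passed an adjusted p of 0.05, where 0.170% of all tested genes did. An unadjusted p below 0.05 was found for 0 of 76, beside 591 of all 10608 tested genes. The lowest adjusted p among the 76 was 0.942. With the replicate number as a block, again 0 of 76 passed, beside 2.06% of all tested genes. In that fit 0 of 76 had an unadjusted p below 0.05, beside 1278 of all 10608 tested genes. The log2 fold change, Uhrf1-/- over wild type on log2(FPKM + 1), was above 0 for all 76, with a median of 0.49 and a range of 0.05 to 0.83, while the median over all tested genes was -0.03. Without wild-type replicate 2 it was above 0 for 7 and below 0 for 69, with a median of -0.18. The range of the 3 Uhrf1-/- libraries lay wholly above that of the wild-type libraries for 0 of the 76 (4.61% of all tested genes) and wholly below it for 0 (6.16%).

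**Figure D2:**
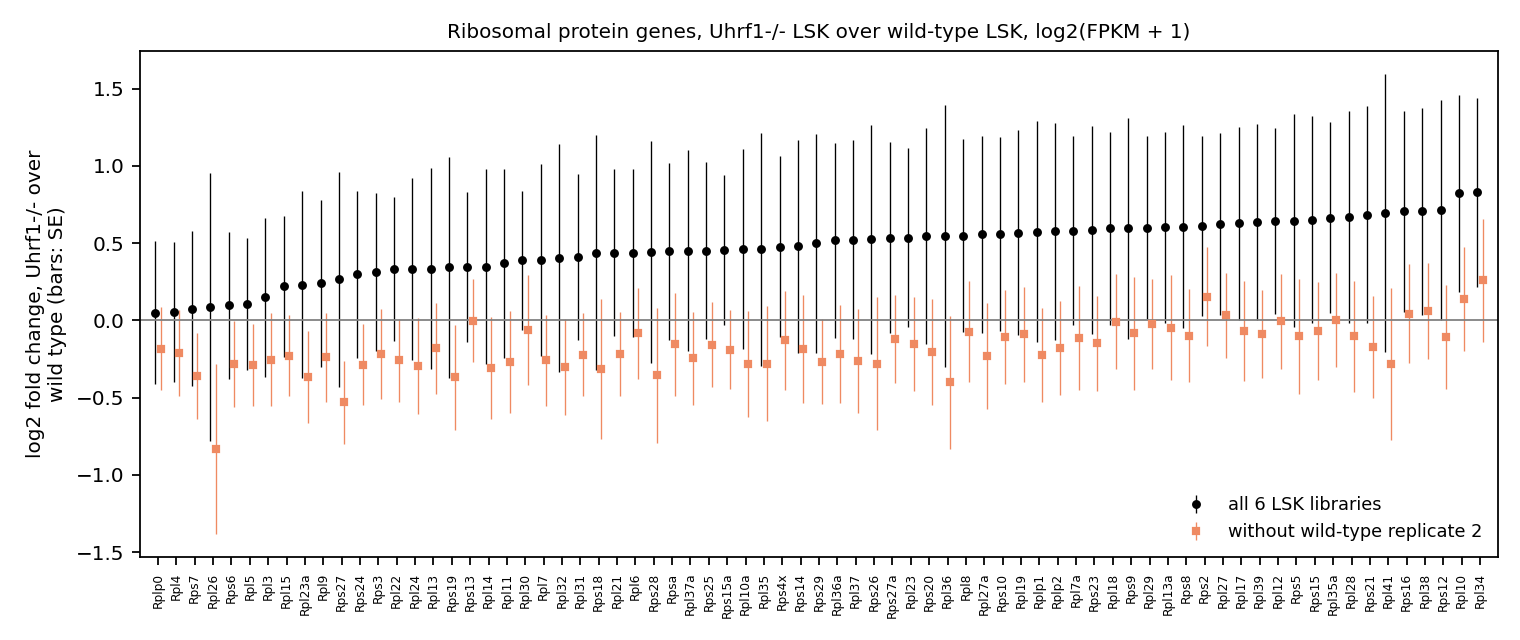
Log2 fold change of each ribosomal protein gene, Uhrf1-/- over wild-type LSK, with its standard error, from all 6 LSK libraries (circles) and without wild-type replicate 2 (squares), for 73 of the 76 genes. All 73 circles lie above 0, and 66 of the squares lie below 0.

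Taken by replicate number, the 3 differences went different ways. The median of the 76 log2 differences, Uhrf1-/- minus wild type, was -0.35 for replicate 1, where 1 gene was higher in Uhrf1-/- cells. It was 1.66 for replicate 2, where all 76 were higher, and 0.21 for replicate 3, where 55 were higher. As a result, 0 of 76 were higher in Uhrf1-/- cells in all 3 pairs (13.9% of all tested genes) and 0 were lower in all 3 (18.3%). The median level of the 76 genes varied with an SD of 0.29 on the log2 scale over the Uhrf1-/- libraries and 1.09 over the wild-type libraries.

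Among the genes of the small subunit, Rps6, the protein phosphorylated by S6 kinase downstream of mTOR, had 1237, 1358 and 1594 FPKM in Uhrf1-/- LSK libraries, against 1592, 767 and 1792 FPKM in wild-type LSK libraries. Its Uhrf1-/- values lay inside the wild-type range. Rps19 (chromosome 7, 24884592 to 24889811 of GRCm38), the gene most often mutated in Diamond-Blackfan anaemia, had 5021, 5382 and 8545 FPKM in Uhrf1-/- LSK libraries, against 7163, 1805 and 8753 FPKM in wild-type LSK libraries. Rps14, whose loss underlies the anaemia of the human 5q- syndrome, had 4746, 4703 and 8355 FPKM in Uhrf1-/- LSK libraries, against 6236, 1624 and 6772 FPKM in wild-type LSK libraries. For both, only wild-type replicate 2 fell below every Uhrf1-/- library. Their log2 fold changes were 0.34 (SE 0.71, adjusted p = 0.962) and 0.48 (SE 0.69, adjusted p = 0.944) in the limma fit, and -0.37 and -0.19 without wild-type replicate 2. Of the 18 ribosomal protein genes listed for Diamond-Blackfan anaemia, 0 passed the limma test, beside 0.170% of all tested genes. Of the 18, 0 had an unadjusted p below 0.05, beside 591 of all 10608 tested genes. At these shares a count of 0 among 18 genes is not a result about them. Their median log2 fold change was 0.45, or -0.28 without wild-type replicate 2.

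Rpsa, which encodes a small-subunit protein also known as a laminin receptor precursor, had 1298, 1304 and 2193 FPKM in Uhrf1-/- LSK libraries, against 1728, 491 and 1721 FPKM in wild-type LSK libraries. Rps7, a component that binds the p53 regulator Mdm2, had 1431, 1555 and 1562 FPKM in Uhrf1-/- LSK libraries, against 1694, 786 and 2230 FPKM in wild-type LSK libraries. Rps12 had 3322, 3032 and 5176 FPKM in Uhrf1-/- LSK libraries, against 4387, 729 and 3696 FPKM in wild-type LSK libraries. Rps7 had one of the 4 lowest fold changes of the 76 genes (0.08 on the log2 scale, SE 0.50) and Rps12 one of the 4 highest (0.71, SE 0.71), and the wild-type values of each enclosed most or all of its Uhrf1-/- values.

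In the large subunit, the stalk proteins recruit the GTPases of translation. Rplp0 (chromosome 5, 115559467 to 115563729 of GRCm38), the base of the stalk, had 1920, 2027 and 1805 FPKM in Uhrf1-/- LSK libraries, against 2207, 1337 and 2139 FPKM in wild-type LSK libraries. Rplp1, one of the acidic proteins that sit on Rplp0, had 4291, 4215 and 5970 FPKM in Uhrf1-/- LSK libraries, against 6093, 1053 and 5083 FPKM in wild-type LSK libraries. Its partner Rplp2 had 4696, 4566 and 6673 FPKM in Uhrf1-/- LSK libraries, against 5956, 1226 and 5892 FPKM in wild-type LSK libraries. The ratio of wild-type replicates 1 and 3 to replicate 2 was thus 1.62 for Rplp0, the smallest of all 76 genes, but 5.29 for Rplp1 and 4.83 for Rplp2. The log2 fold changes by genotype were 0.05, 0.58 and 0.58. Of the 3, 0 passed the limma test (0.170% of all tested genes). None had an unadjusted p below 0.05, beside 591 of all 10608 tested genes.

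Rpl5 and Rpl11 form, with 5S ribosomal RNA, the particle that inhibits Mdm2 when ribosome assembly fails. Neither was called, nor was any of the 8 listed Mdm2-binding members, beside 0.170% of all tested genes. The median log2 fold change of the 8 was 0.34. Rpl5 had 535, 663 and 619 FPKM in Uhrf1-/- LSK libraries, against 715, 325 and 757 FPKM in wild-type LSK libraries. Rpl11 had 1885, 2006 and 3203 FPKM in Uhrf1-/- LSK libraries, against 2671, 732 and 2876 FPKM in wild-type LSK libraries. Rpl22, whose protein is required for development of some T cells in mice, had 194, 199 and 250 FPKM in Uhrf1-/- LSK libraries, against 241, 74.0 and 270.2 FPKM in wild-type LSK libraries. By FPKM its paralog Rpl22l1 was higher in every library, but by scaled counts it was lower in every library (36.4% to 49.2% of the pair). The log2 FPKM ratio of Rpl22l1 to Rpl22 averaged 2.12 ± 0.11 in Uhrf1-/- and 1.93 ± 0.18 in wild-type LSK libraries (SD, n = 3 each). The exact permutation test gave p = 0.3, unadjusted, with 13 such pairs of gene and copy tested.

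The 4 highest genes by mean level over the LSK libraries were Rpl41, Rpl32, Rpl36 and Rpl35, all of the large subunit. Rpl41 (chromosome 10, 128548110 to 128549168 of GRCm38), which encodes a tiny basic peptide, had 8274, 7312 and 21024 FPKM in Uhrf1-/- LSK libraries, 16156 FPKM in the LK library, and 10937, 1719 and 15876 FPKM in wild-type LSK libraries. The 4 lowest were Rps15a, Rpl26, Rpl22 and Rpl30, at mean levels of 93.1, 141.2, 204.7 and 270.3 FPKM over the LSK libraries. Rps15a had 89.8, 94.5 and 117.2 FPKM in Uhrf1-/- LSK libraries, against 115.5, 29.1 and 112.3 FPKM in wild-type LSK libraries. Its place depended on the length that the authors' tool assigned, since by scaled counts per kilobase of coding sequence it ranked 69 of 76. Rpl26 then ranked 76, Rpl30 ranked 75, Rpl22 ranked 73 and Rpl41 stayed at 1.

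None of the largest fold changes by genotype passed the test. Rpl10, which joins the large subunit last and lies near its catalytic centre, had 2892, 2548 and 3852 FPKM in Uhrf1-/- LSK libraries, against 3469, 669 and 2208 FPKM in wild-type LSK libraries (log2 fold change 0.82, SE 0.64). Rpl38, needed for translation of Hox mRNAs in mouse embryos, had 6060, 5603 and 6764 FPKM in Uhrf1-/- LSK libraries, against 7202, 1534 and 4780 FPKM in wild-type LSK libraries (0.71, SE 0.67). For Rpl38, wild-type replicate 1 was above every Uhrf1-/- library, and for Rpl10 it was above all but the highest (3852 FPKM). Relative to the median of the 76 genes in each library, Rpl34, Rpl10, Rps12 and Rpl38 were again the 4 most positive (0.20 to 0.32 on the log2 scale) and Rplp0, Rpl4, Rps7 and Rpl26 the 4 most negative (-0.42 to -0.45). None passed the limma test on that scale (0 of 76, 0 with an unadjusted p below 0.05, lowest adjusted p 0.904), where 0% of all 10608 tested genes did and 96 had an unadjusted p below 0.05.

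Wild-type replicate 2 was the lowest of the 7 libraries for 76 of 76 ribosomal protein genes, where it was lowest for 19.7% of all tested genes. For 67 of the 76 its level was under 0.5 times that of the next lowest library (3.62% of all tested genes). The 9 that did not were Rpl3, Rpl4, Rpl5, Rpl30, Rpl34, Rplp0, Rps6, Rps7 and Rps13. The ratio of wild-type replicates 1 and 3 to replicate 2 had a median of 3.94 over the 76 genes and ran from 1.62 for Rplp0 to 7.67 for Rpl41.

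The shortfall was graded by coding length. Its median was 5.11-fold for the 9 ribosomal protein genes with a coding sequence under 300 bases, 4.27-fold for 16 genes of 300 to 399 bases, 3.996-fold for 22 genes of 400 to 499 bases, 3.93-fold for 16 genes of 500 to 699 bases and 2.97-fold for 13 genes of 700 bases and over. Across the 76 genes, which share these libraries, the log2 difference of wild-type replicate 2 from replicates 1 and 3 followed coding length with a Spearman rho of 0.59. Rpl41 (138 bases) and Rplp0 (951 bases), the extremes of the ratio, show the trend. Rpl4, the longest at 1257 bases, had 1307, 1435 and 1666 FPKM in Uhrf1-/- LSK libraries, against 1588, 975 and 1808 FPKM in wild-type LSK libraries.

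Other short genes were also lower in that library, but by less. Among tested genes outside the family, the median log2 difference of wild-type replicate 2 from replicates 1 and 3 was -0.74 for 240 genes under 300 bases, -0.60 for 365 genes of 300 to 399 bases, -0.23 for 404 genes of 400 to 499 bases and -0.01 for 996 genes of 500 to 699 bases. It was 0.29 for 2310 genes of 1000 to 1499 bases, 0.20 for 1477 genes of 2000 to 2999 bases and -0.26 for 1199 genes of 3000 bases and over, so that the longest class was low as well. Over all 10020 other tested genes the Spearman rho with coding length was 0.05. For the 286 other genes under 700 bases with a mean of at least 300 FPKM, a set defined after these values were seen, it was -1.04, and replicate 2 was the lowest library for 200 of them (69.9%). For the 109 longer genes at that level it was -0.16, and for the 76 ribosomal protein genes -1.98. The coding lengths of the family ran from 138 to 1257 bases with a median of 454.5, against a median of 1305 for the other tested genes. Each library was also set against the mean of the other LSK libraries. For the 240 genes under 300 bases the median log2 deviation was 0.34, 0.40 and -0.33 in Uhrf1-/- LSK libraries. It was 0.58, -0.73 and -0.27 in wild-type LSK libraries. For the 1199 genes of 3000 bases and over the values were -0.14, -0.19 and 0.35, and -0.11, -0.21 and 0.30. A departure with length was thus not particular to wild-type replicate 2. Length moved with the shortfall within the family and among other genes under 1000 bases, but not steadily beyond, and the part of length and level in it was not tested.

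**Figure D3:**
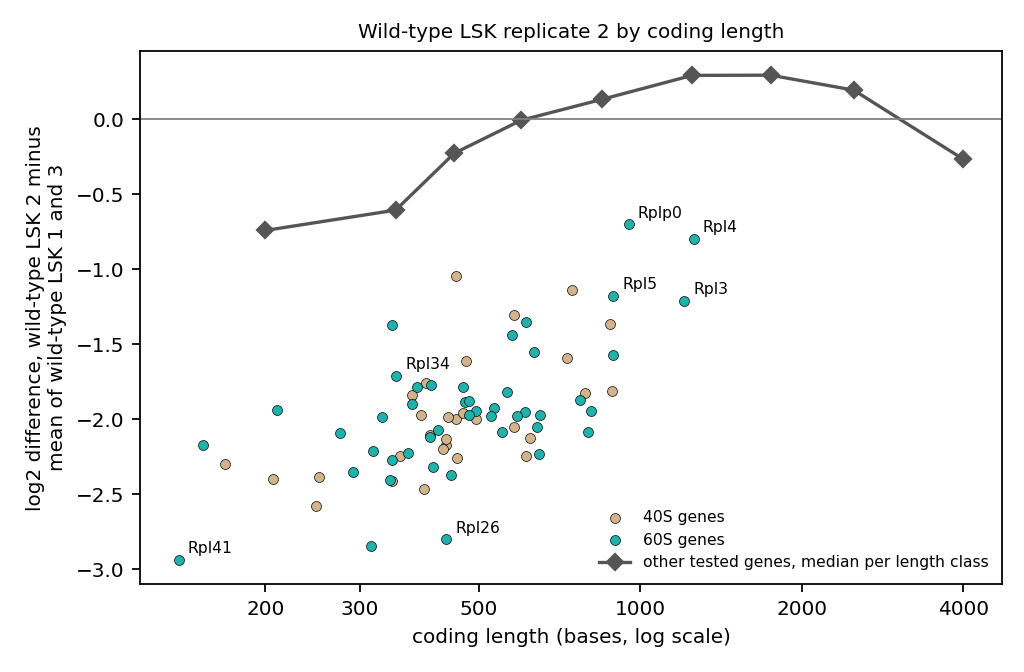
Log2 difference of wild-type LSK replicate 2 from the mean of wild-type LSK replicates 1 and 3, against coding length in bases on a log axis. Points are the ribosomal protein genes by subunit and diamonds are medians of other tested genes per length class, placed within each class. All 76 points lie below 0, from -0.70 for Rplp0 to -2.94 for Rpl41, and the median of other genes in each class lies above the points of that class.

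Related gene lists were set beside the family. The other TOP mRNAs, 18 translation factors and similar genes, had a median log2 difference of -0.87 in wild-type replicate 2 from replicates 1 and 3, and the 73 mitochondrial ribosomal protein genes one of -0.57. The 56 tested ribosome biogenesis genes had one of 0.03. By genotype, the limma test called 0 of 18, 0 of 73 and 0 of 56 (0.170% of all tested genes). Their median log2 fold changes were 0.10, 0.17 and 0.04. An unadjusted p below 0.05 was found for 0, 0 and 3 of them, beside 591 of all 10608 tested genes. With the replicate block 1 of the 56 biogenesis genes was called, a share near the 2.06% of all tested genes. This was Gar1, a protein of the particles that pseudouridylate ribosomal RNA, at 267.6, 114.7 and 157.7 FPKM in Uhrf1-/- LSK libraries, against 75.6, 54.5 and 50.8 FPKM in wild-type LSK libraries (log2 fold change 1.50, limma adjusted p = 0.166, with the block 0.0038). Its Uhrf1-/- range lay wholly above its wild-type range, as was so for 4.61% of all tested genes. Of 15 regulators of mTOR and Myc, 0 passed the limma test (0.170% of all tested genes). Beside 591 of all 10608 tested genes, 0 of the 15 had an unadjusted p below 0.05. Myc, which drives ribosome synthesis, had 162.2, 164.1 and 97.8 FPKM in Uhrf1-/- LSK libraries, against 116.9, 150.2 and 163.4 FPKM in wild-type LSK libraries.

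Fau, outside the symbol rule, whose product includes the small-subunit protein eS30, was also lowest in wild-type replicate 2. It had 2588, 2368 and 4296 FPKM in Uhrf1-/- LSK libraries, against 3524, 609 and 3072 FPKM in wild-type LSK libraries. Of 9 tested genes of the cytosolic ribosome outside the rule, paralogs included, 0 passed without the block (0.170% of all tested genes). Without it 1 had an unadjusted p below 0.05, beside 591 of all 10608 tested genes. With the block 1 passed, beside 2.06% of all tested genes. That gene, the paralog Rpl39l, was low in every library, at 9.78, 12.0 and 3.34 FPKM in Uhrf1-/- LSK libraries, against 4.68, 2.60 and 2.20 FPKM in wild-type LSK libraries (log2 fold change 1.07, limma adjusted p = 0.756, with the block 0.043). Its ranges overlapped.

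Over the 7 libraries, the genes outside the family whose log2(FPKM + 1) most resembled the mean of the family were the long noncoding RNAs 2410006H16Rik (Pearson r = 0.996) and 1110038B12Rik (0.992), Fau (0.994), Arglu1 (0.990) and Eef1g (0.990). Of 10532 other tested genes, 194 had an r over 0.9. The libraries include wild-type replicate 2, which stands apart, and r was not computed without it. 2410006H16Rik had 396.3, 367.9 and 509.1 FPKM in Uhrf1-/- LSK libraries, against 496.8, 105.9 and 504.1 FPKM in wild-type LSK libraries, and wild-type replicate 2 was again the lowest.

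The single LK library held the family at levels close to those of LSK cells. Without a second library there was no test. Its median level was 2906 FPKM, against 2529, 2451 and 3524 FPKM in Uhrf1-/- LSK libraries and 3196, 826 and 2893 FPKM in wild-type LSK libraries. It was above all 6 LSK libraries for 24 of the 76 genes (28.2% of all tested genes) and below all 6 for 0 (25.7%). The count of 0 was fixed by wild-type replicate 2, which was the lowest library for every member. Leaving that library aside, LK was below the other 5 for 8 members (29.5%). For 61 of the 76 it was above the LSK median, by a median log2 difference of 0.29 (0.05 over all tested genes).

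Rpl26 (chromosome 11, 68901566 to 68904534 of GRCm38), a large-subunit protein that in human cells also binds p53 mRNA, departed most. It had 1253 FPKM in the LK library, against 82.4, 129.6 and 122.4 FPKM in Uhrf1-/- LSK libraries and 98.8, 28.0 and 385.9 FPKM in wild-type LSK libraries. The LK value was above every LSK value, and among these wild-type replicate 3 was the highest. Relative to the median of the family in each library, Rpl26 had the largest SD over the LSK libraries (0.81 on the log2 scale) and Rpl19 the smallest (0.06). On this relative scale the LK library was above all LSK libraries for 27 genes (3.12% of all tested genes) and below all for 9 (25.8%), among them Rpl19 and Rpl34. The family's own median sets this scale, and nothing was read from those shares. Red cell precursor markers (12 of 13 listed genes in the table, none at 0 in all libraries) summed to 1798 FPKM in the LK library and to 225 to 711 FPKM in the LSK libraries. Hba-a1, Klf1 and Hbb-bs were highest in the LK library, at 662.8, 306.7 and 231.8 FPKM. Hbb-b1 and Hbb-b2, at 137.0 and 267.0 FPKM there, were higher in every Uhrf1-/- LSK library and in wild-type LSK replicate 1. They were lower in wild-type LSK replicates 2 and 3. The part of these markers in the differences above was not tested.

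Rpl34 (chromosome 3, 130726827 to 130730398 of GRCm38) went the other way, beside a near-identical copy. Rpl34-ps1 (chr6:71124610-71124963, plus strand, GRCm38) is annotated by GENCODE as a processed pseudogene, and its 354 bases differ from the coding sequence of Rpl34 at 2 positions with no gap. Counted from the A of the start codon and written as Rpl34 base, position, copy base, these are T132C and C318G. The stretches around them are shown because gene and copy are identical in the rest of the coding sequence, so that reads from there cannot be told apart, and capitals mark the differing base.
Rpl34, coding positions 112 to 152: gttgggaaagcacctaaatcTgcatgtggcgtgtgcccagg
Rpl34-ps1 (chr6:71124721-71124761): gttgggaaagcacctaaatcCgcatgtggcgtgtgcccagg
Rpl34, coding positions 298 to 338: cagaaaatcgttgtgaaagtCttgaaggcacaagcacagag
Rpl34-ps1 (chr6:71124907-71124947): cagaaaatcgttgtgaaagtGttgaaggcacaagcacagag

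Rpl34 had 2718.5, 2511 and 3427 FPKM in Uhrf1-/- LSK libraries, 1189 FPKM in the LK library, and 3616, 731 and 1579 FPKM in wild-type LSK libraries. Rpl34-ps1 had 335, 461 and 808 FPKM in Uhrf1-/- LSK libraries, 2687 FPKM in the LK library, and 354, 110 and 1796 FPKM in wild-type LSK libraries. The copy took 66.6% of the scaled counts of the pair in the LK library and 51.9% in wild-type LSK replicate 3, against 8.56% to 18.7% in the other 5 libraries. The pair together took 0.113% of scaled counts in the LK library and 0.0968% in wild-type LSK replicate 3. It took 0.0810%, 0.0768% and 0.113% in Uhrf1-/- LSK libraries, and 0.101% and 0.0270% in wild-type LSK replicates 1 and 2. Rpl34 had the highest log2 fold change of the 76 by genotype (0.83, SE 0.61, limma adjusted p = 0.942), and the part of this division in it was not tested.

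**Figure D4:**
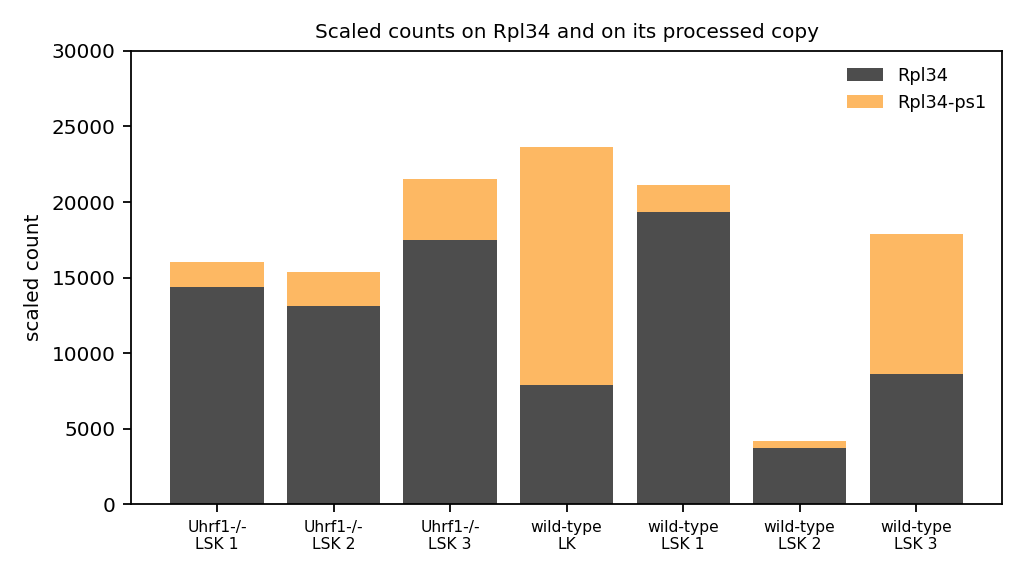
Scaled counts on Rpl34 (dark) and on its processed copy Rpl34-ps1 (light), stacked, in each library. The copy takes 66.6% of the pair in the LK library and 51.9% in wild-type LSK replicate 3, and 8.56% to 18.7% in the others.

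The table has 5 further copies of members. Of these, chosen after their values were seen, Rps19-ps3 took 4.27% of its pair in the LK library, against 1.23% to 2.21% in the LSK libraries, and Rps15a-ps4 took 7.21% in the LK library, against 1.65% to 4.02% in the LSK libraries. The LK library had the highest share for all 5 copies. Among the LSK libraries, wild-type replicate 3 was highest for these and for Rplp2-ps1, but wild-type replicate 1 was highest for Rps15a-ps6 (6.75%, against 6.50% in replicate 3) and Rpl31-ps12 (10.05%, against 9.94%). Over aligned stretches the 4 copies with a GENCODE transcript, beside Rpl34-ps1, were 95.4% to 98.9% identical to a transcript of their gene. Levels of genes with such copies, listed or not, are uncertain to the extent that reads were divided, and the labels do not say how the authors counted such reads.

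Some members of the family differed in replicate 3 of both genotypes from replicates 1 and 2. Relative to the family's median, 24 genes were higher in both replicate 3 libraries than in all 4 others (0.764% of all tested genes), and 8 were lower (30.0%), among them Rpl30. These shares also carry the movement of the family's median itself, so nothing was read from the comparison with them. Rpl36 had 6324, 6032 and 13949 FPKM in Uhrf1-/- LSK libraries, against 9392, 1489 and 12199 FPKM in wild-type LSK libraries. Rps18, chosen after its values were seen, had 4741, 4824 and 11271 FPKM in Uhrf1-/- LSK libraries, against 6501, 1651 and 9637 FPKM in wild-type LSK libraries. Rpl30 had 366.6, 344.0 and 189.6 FPKM in Uhrf1-/- LSK libraries, against 331.0, 116.6 and 274.3 FPKM in wild-type LSK libraries, and relative to the family's median it was lowest in both replicate 3 libraries. The LK library correlated over the 76 genes most with wild-type LSK replicate 3 (r = 0.977) and least with replicate 2 (0.857). Among LSK libraries, wild-type replicate 3 correlated most with Uhrf1-/- replicate 3 (0.968). Uhrf1-/- replicate 3 itself correlated more with wild-type replicate 1 (0.977) and Uhrf1-/- replicate 1 (0.971), so the family as a whole did not set replicate 3 apart.

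**Figure D5:**
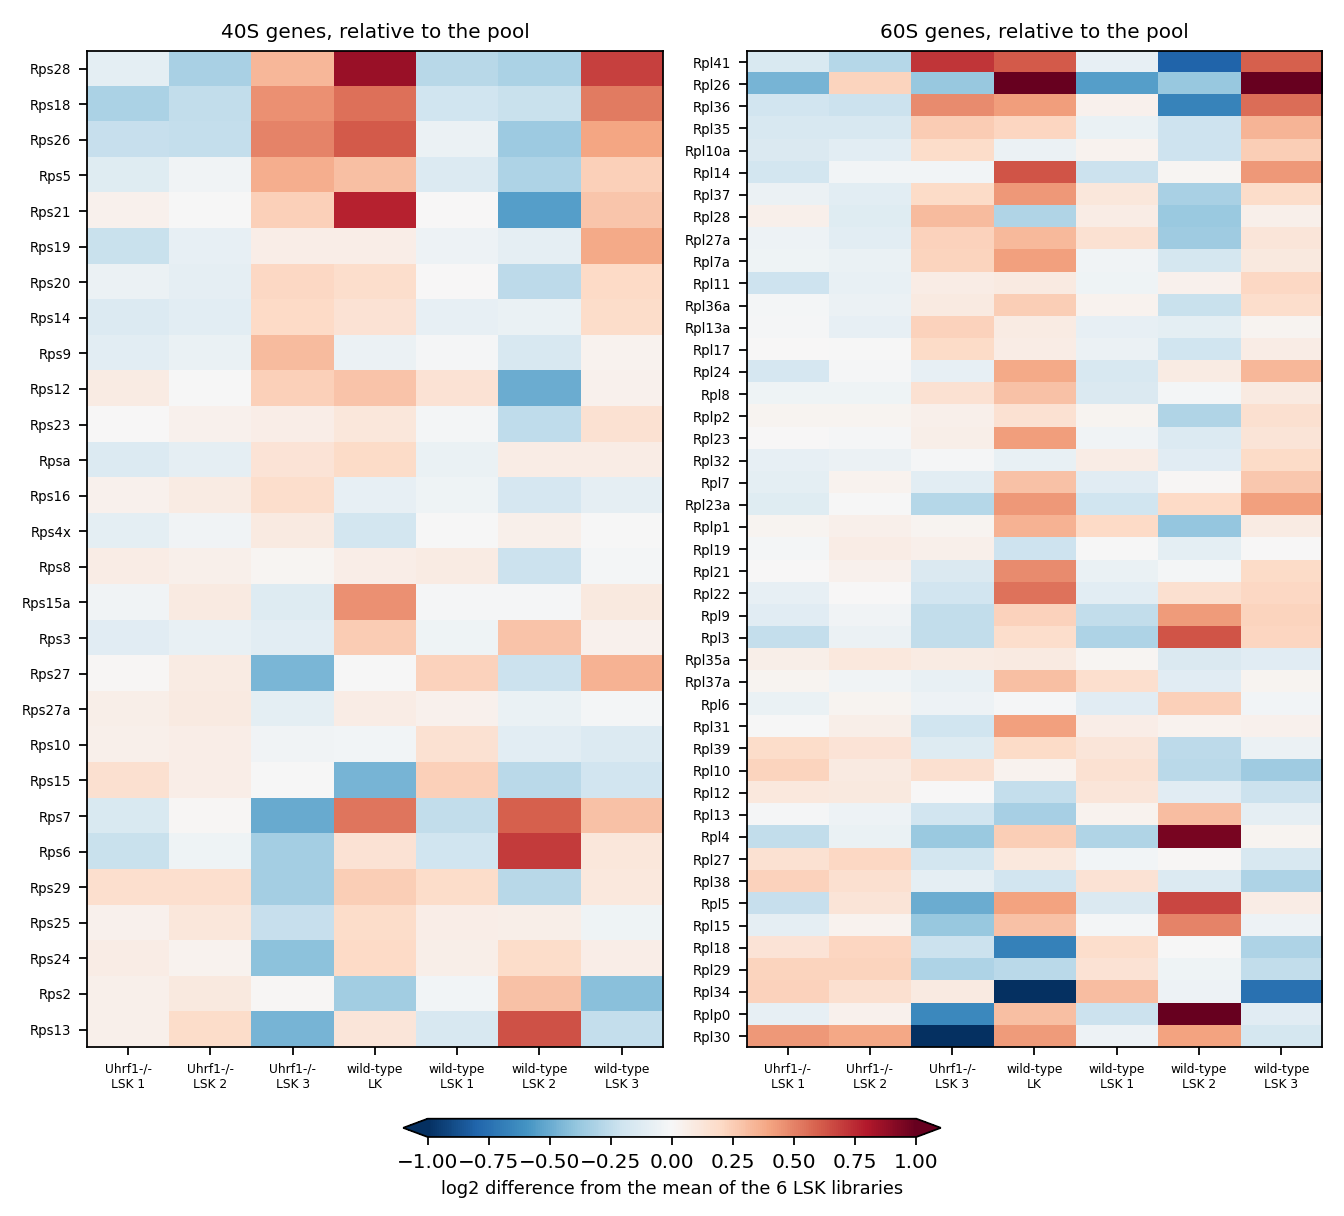
Each of 73 ribosomal protein genes relative to the median of the 76 genes in the same library, as the log2 difference from its mean over the 6 LSK libraries (red higher, blue lower), by subunit and ordered by the sum of both replicate 3 libraries. Genes such as Rpl41 and Rps18 at the top are high in both replicate 3 libraries and in the LK library, and Rpl34 is low in the LK library and wild-type LSK replicate 3.

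Immediate-early genes, which respond to stimulation of cells, moved with replicate 3 as well. The summed level of 18 of them, all in the table and none at 0 in all libraries, was 2055, 1814 and 208 FPKM in Uhrf1-/- LSK libraries, 75.8 FPKM in the LK library, and 2148, 2530 and 141 FPKM in wild-type LSK libraries. Macrophage markers (9 of 10 in the table) summed to 54.3, 51.6 and 17.3 FPKM in Uhrf1-/- LSK libraries, 18.0 FPKM in the LK library, and 168.5, 101.9 and 25.4 FPKM in wild-type LSK libraries. The lower sum in replicate 3 lay mostly in the complement genes C1qa, C1qb and C1qc, of which C1qb had 13.9, 16.1 and 1.71 FPKM in Uhrf1-/- LSK libraries, against 67.0, 31.4 and 0.922 FPKM in wild-type LSK libraries. Cd68 did not follow, with 15.4, 12.1 and 11.8 FPKM in Uhrf1-/- LSK libraries, against 8.98, 14.2 and 14.1 FPKM in wild-type LSK libraries. Hepatoblast markers summed to 38.8 to 54.4 FPKM in every library, wild-type replicate 2 being the lowest. Krt18 made up most of this sum in LSK libraries (30.5 to 43.4 FPKM, 14.8 FPKM in the LK library), and other members varied. Apoa2 had 13.8 FPKM in the LK library, against 1.20 to 5.31 FPKM in LSK libraries, while Hnf4a had 0.679 FPKM, against 2.30 to 4.44 FPKM. Alb was low but higher in both replicate 3 libraries (1.72 and 0.886 FPKM) than in other LSK libraries (0 to 0.278 FPKM). The part of these in the differences within the family was not tested.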

How the data were processed

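The deposited table gives 2 values per gene and library. The deposited scaled count signal is headed as a count but is not whole. Between 98.2% and 98.6% of low values come within 0.02 of being whole when divided by a step found for each library, and the rest do not. They were not treated as whole reads, and no count model was run. FPKM values were used as deposited. The submitters' processing notes name TopHat2 2.0.9, Cufflinks 2.1.1 and mm10, with no roles, and no source used here gives the annotation, strand setting or counting options.

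Genotypes were compared with limma 3.58.1 (R 4.3.3) on log2(FPKM + 1), trend and robust, two-sided, Benjamini-Hochberg over the 10608 genes averaging at least 1 FPKM in the 6 LSK libraries. This scale understates changes of low genes. Shares and ratios had exact permutation tests. Same-numbered libraries deviated together (0.349, 0.332 and 0.645), so the numbers were read as pairs, and a blocked fit was an alternative. Uhrf1-/- replicate 1 with wild-type replicate 2 (0.213) and Uhrf1-/- replicate 2 with wild-type replicate 1 (0.159) did so too. The pairing of replicates 1 and 2 by number is therefore uncertain.

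Coding lengths are of GENCODE M21 (principal isoform, stop codon left out), and start sites and gene IDs are of RefSeq. Named genes were those called, the 4 highest and lowest by level and by fold change, those of largest and smallest spread, the 5 most alike outside the family, and 10 with known roles. The members, lists and rules were chosen with earlier results of these data known. A few genes are not reported here by name or drawn in the plots that label genes.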

Additional observations from a re-analysis of the deposited data

How the results depend on the processing

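No ribosomal protein gene passed the limma test under any setting tried: pseudocount 0.1, no filter or a filter of 10 FPKM, scaled counts, median-of-ratios scaling, a total without the family, centring on the family's median, the replicate block, or without any 1 library. The median log2 fold change, 0.49 as reported, was 0.29 with a total that leaves out the family and ran from -0.18 to 0.84 without any 1 library, being below 0 without wild-type replicate 2, 0.84 without wild-type replicate 1, 0.82 without wild-type replicate 3 and 0.31 without Uhrf1-/- replicate 3. The median over all tested genes, -0.03 as reported, was -0.22 with a total that leaves out the family and -0.54 with centring. With the block and without pair 2, a choice made after seeing the data, the median of the 76 genes was -0.09 (20 genes above 0 and 56 below). The replicate block changed no call among the 76 genes. The difference in summed share ran from -1.51 to 3.19 percentage points without any 1 library. It was 2.76 for FPKM and 1.82 with a total that leaves out the 100 genes with most counts. The log2 40S to 60S ratio differed by 0.0094 to 0.017 without any 1 library, each with the smallest exact p that 2 against 3 libraries allow, 0.2. Tests on whole reads (edgeR, DESeq2) were not run because the values are not whole counts. Precision is limited by the 3 libraries per genotype.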
